A study of Homo sapiens with 6 samples.

Results

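Matrix metalloproteinases (MMPs) and the tissue inhibitors of metalloproteinases (TIMPs) were examined by RNA sequencing in HK-2 cells, a widely used human cell line from the proximal tubule of the kidney. The 10 genes were *MMP1*, *MMP2*, *MMP3*, *MMP7*, *MMP10*, *MMP14*, *MMP24*, *TIMP1*, *TIMP2* and *TIMP3*, and all of them were found by symbol among the 31369 genes of the count table. They were chosen by name from these protein families, with the levels of the same samples already known. Their values are therefore given as a description, without a test.

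The study compared 3 control samples (NC) with 3 samples that overexpressed *PPM1K* (OE), a mitochondrial protein phosphatase, to look for genes related to apoptosis. According to the genotype entries, NC was WT and OE was PPM1K overexpress, and all 6 samples also carried the entries chronic kidney disease as treatment and day 10 as time. The sample titles name shControl and shPPM1K instead. The study's methods describe transfection of a *PPM1K* plasmid with a lipid reagent and name neither a collection day nor what the control cells received, and the cell line entry gives 1 cell line number per sample although the cell type entry is HK-2 throughout.

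MMPs are zinc-dependent endopeptidases made as inactive proenzymes, and they cleave extracellular matrix, receptors and growth factor binding proteins once the propeptide is removed. TIMPs bind the active site of MMPs and so limit that cleavage. In the kidney, *MMP7* (matrilysin) is known as a gene of tubule epithelium that is low in healthy tissue and rises in injury and fibrosis, where it is a target of Wnt/beta-catenin signalling.

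The total count was between 34635770 and 39850802 per sample, and 15878 genes were counted well enough to be tested. For *PPM1K* itself, the NC counts were 37, 19 and 53 and the OE counts 3294, 3531 and 2919 (each in the order of replicates 1, 2 and 3). This matched the genotype entries and not the hairpin named in the titles. NC replicate 2 stood apart by the number of genes with at least 1 count, 26478 against 22094 to 22913 in the other samples. In the study's mapping summary, NC replicate 2 also had the highest shares of intronic, intergenic and antisense reads. Keratin and tubule genes were present (mean deposited FPKM, fragments scaled to transcript length and library size, of *KRT8* 289 in NC and 210 in OE and of *PAX8* 27.7 and 33.5), but *LRP2*, *CUBN* and *AQP1*, which define the proximal tubule in vivo, had at most 6 counts in any sample.

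The sequences before the transcription start are shown for 4 MMP genes, *MMP7* and *MMP10* because they hold an AP-1 motif, the element usually described at MMP promoters, and the membrane-type genes *MMP14* and *MMP24* because they hold none. RefSeq promoter sequences (GRCh38.p14) were matched for 6 members, namely *MMP7*, *MMP10*, *MMP14*, *MMP24*, *TIMP1* and *TIMP3*. Capitals mark the AP-1 letters TGANTCA and the ETS letters AGGAAG, searched on both strands, so that CTTCCT is an ETS match on the other strand. The sequences run 5′ to 3′ along the gene and end at the annotated start.
MMP7 (chr11:102530751-102530997, minus strand): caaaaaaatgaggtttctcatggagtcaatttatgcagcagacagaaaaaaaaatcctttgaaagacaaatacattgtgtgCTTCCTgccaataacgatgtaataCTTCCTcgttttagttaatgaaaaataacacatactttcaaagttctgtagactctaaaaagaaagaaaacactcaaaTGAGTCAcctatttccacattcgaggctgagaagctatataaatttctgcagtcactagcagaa
MMP10 (chr11:102780629-102780878, minus strand): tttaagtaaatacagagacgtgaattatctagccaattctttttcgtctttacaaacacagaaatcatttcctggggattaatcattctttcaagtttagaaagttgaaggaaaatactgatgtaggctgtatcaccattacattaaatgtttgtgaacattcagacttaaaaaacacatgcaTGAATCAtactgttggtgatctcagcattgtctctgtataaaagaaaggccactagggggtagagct
MMP14 (chr14:22836335-22836559, plus strand): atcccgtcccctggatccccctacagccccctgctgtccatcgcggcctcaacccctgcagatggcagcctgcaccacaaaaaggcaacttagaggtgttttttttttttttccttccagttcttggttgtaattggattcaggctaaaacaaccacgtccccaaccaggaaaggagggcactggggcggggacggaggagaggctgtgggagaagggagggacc
MMP24 (chr20:35226440-35226689, plus strand): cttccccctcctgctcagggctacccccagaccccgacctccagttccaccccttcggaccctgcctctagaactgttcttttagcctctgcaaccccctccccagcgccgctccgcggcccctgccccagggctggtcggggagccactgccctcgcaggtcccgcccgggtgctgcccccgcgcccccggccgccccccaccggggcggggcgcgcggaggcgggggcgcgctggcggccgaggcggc
The promoter of *MMP7* held 1 AP-1 match, TGAGTCA, and 2 ETS matches. That of *MMP10* held 1 AP-1 match, TGAATCA, whose first base lies 67 bases before the RefSeq start, the same distance as in *MMP7*. *MMP14*, *MMP24* and *TIMP3* had none of these letters in the window, and *TIMP1* had 1 ETS match. The TCF letters CTTTGAT were in none of the 6 windows. Only these letters were searched, so the other TCF form CTTTGAA, which the *MMP7* sequence above holds on both strands, was not counted. Over all 27305 RefSeq promoters, the 250 bases before the start held the AP-1 letters in 6.60%, the ETS letters in 28.7% and the TCF letters in 2.28%. The windows also differed in base composition, from 33.6% G and C in *MMP7* and 34.4% in *MMP10* to 77.6% in *MMP24*. A match describes the letters only.

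*MMP7*, a small secreted MMP that lacks the hemopexin domain, showed the widest gap between the groups. Its counts were 5738, 5426 and 6173 in NC and 711, 737 and 611 in OE. Every OE sample was far below every NC sample. In CPM (counts relative to library size, scaled by the TMM factors of edgeR) NC reached 164 ± 8.84 (SD, n = 3) and OE 18.2 ± 1.27 (SD, n = 3), and in FPKM 65.0 ± 4.11 and 7.34 ± 0.420. OE was −3.16 relative to NC on the log2 scale (standard error 0.064), or 11.2% of the NC level. In bulk RNA, fewer cells that express a gene and less of its RNA per cell cannot be told apart. *MMP7* (11:102520508-102530750 in GENCODE release 44 on GRCh38, minus strand) overlaps no other annotated gene.

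*MMP1*, the interstitial collagenase, was also lower in OE and from a much lower start. Its counts were 502, 452 and 532 in NC and 193, 195 and 206 in OE. The groups did not overlap, and the lowest NC sample was above the highest OE sample by more than the whole spread of either group. NC samples had a CPM of 14.0 ± 1.04 (SD, n = 3) and OE samples of 5.28 ± 0.372 (SD, n = 3), and the log2 fold change was −1.41 (standard error 0.10), or 37.6% of the NC level. The gene lies at 11:102789401-102798160 on the minus strand and shares 223 exonic bases with the pseudogene *WTAPP1* on the other strand, which had at most 1 count in any sample.

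The stromelysins *MMP3* and *MMP10*, which cleave proteoglycans and activate procollagenases, were at the limit of detection. *MMP3* had 0 counts in every sample but OE replicate 1, with 1 count. *MMP10* had 1, 0 and 0 counts in NC and 8, 3 and 1 counts in OE. A count of 0 allows up to 3 counts in a library, and neither group of *MMP3* was above that floor. For *MMP10*, the summed 12 counts in OE against 1 in NC gave a ratio of 11.3 per library size, with an exact 95% interval of 1.67 to 482. OE replicate 1 carried 8 of these 12 counts, and without it, an alternative chosen after seeing the data, the ratio was 5.59 with an interval of 0.553 to 275. Such floors and intervals cover counting error only. *MMP10* and *MMP7* each hold an AP-1 match at the same distance from the RefSeq start, and its part in their counts was not tested.

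*MMP2*, the gelatinase that stromal cells usually make, was also near the floor of what could be measured. Its counts were 14, 23 and 29 in NC and 31, 33 and 30 in OE. The highest NC sample lay 1 count below the lowest OE sample. NC samples had a CPM of 0.621 ± 0.204 (SD, n = 3) and OE samples of 0.833 ± 0.00693 (SD, n = 3), and the log2 fold change was 0.42 (standard error 0.32), little more than its own error. Without NC replicate 1 the log2 fold change was 0.19, and without NC replicate 3 it was 0.66. *MMP2* lies at 16:55389700-55506691 on the plus strand and overlaps 3 other annotated genes. Of these, a gene of type TEC on the same strand shares 174 exonic bases with *MMP2*. The others are long noncoding RNA genes on the other strand that share no exonic base.

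**Figure D1:**
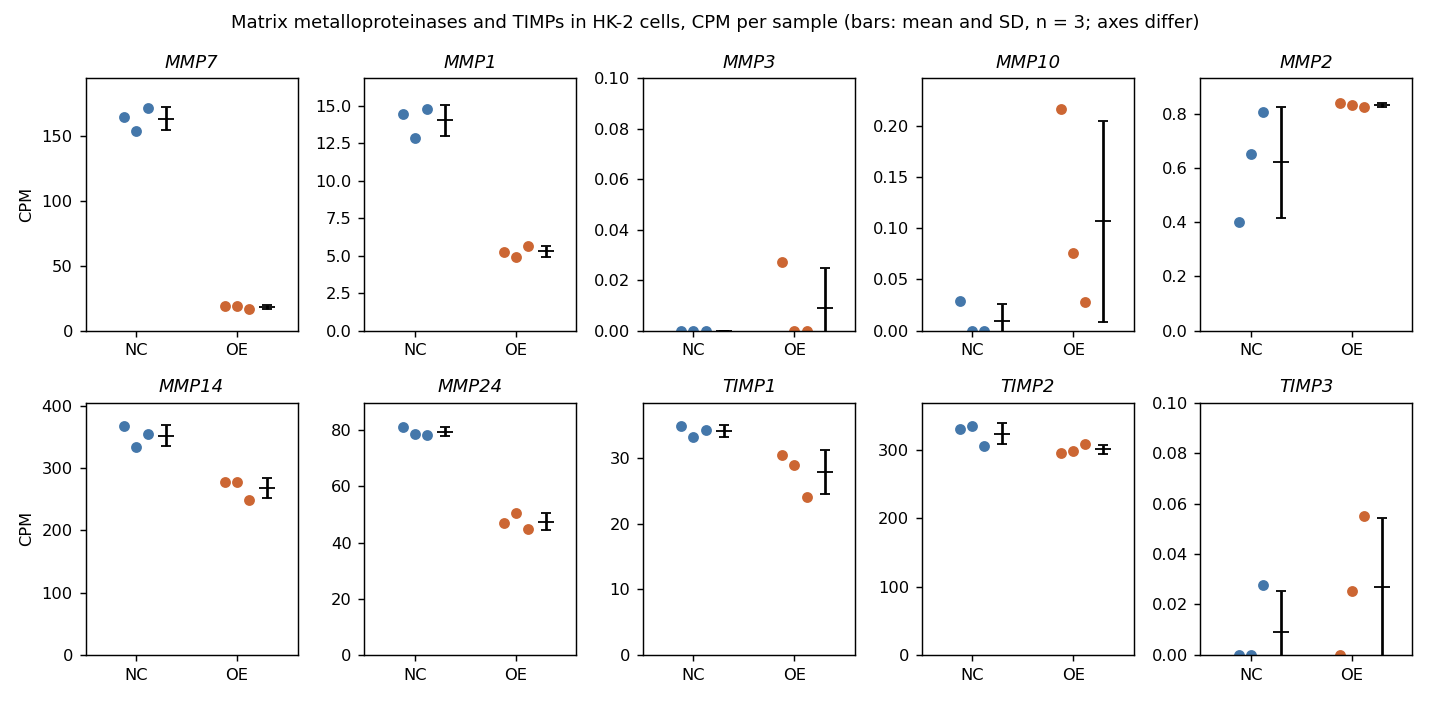
CPM of each of the 10 genes in the 3 NC samples (blue) and the 3 OE samples (orange), replicates 1 to 3 from left to right, with the mean and SD (n = 3) beside the points and a separate axis from 0 for each gene. The NC and OE points are far apart for *MMP7* (154 to 172 CPM against 16.8 to 19.3) and meet for *TIMP2*, while the axes of *MMP3*, *MMP10* and *TIMP3* end below 1 CPM.

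The plot of CPM by sample shows that the spread among replicates was small beside the gap between groups for *MMP7*, *MMP1*, *MMP24* and *MMP14*, and that the gap, relative to the NC level, narrowed in that order.

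*MMP14* (MT1-MMP), the membrane-type MMP that activates the proenzyme of *MMP2* at the cell surface, had the highest counts of the MMP genes. Its counts were 12762, 11724 and 12769 in NC and 10241, 10984 and 9051 in OE. All OE samples were below all NC samples, with a modest gap. NC samples had a CPM of 352 ± 17.1 (SD, n = 3) and OE samples of 268 ± 16.4 (SD, n = 3), and the log2 fold change was −0.39 (standard error 0.055), or 76.2% of the NC level. *MMP14* lies at 14:22836560-22849041 on the plus strand and overlaps no other annotated gene.

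*MMP24* (MT5-MMP), a membrane-type MMP best known from the nervous system, was also lower in OE. Its counts were 2827, 2772 and 2811 in NC and 1738, 2001 and 1625 in OE. The highest OE sample was well below the lowest NC sample. NC samples had a CPM of 79.4 ± 1.63 (SD, n = 3) and OE samples of 47.5 ± 2.96 (SD, n = 3), and the log2 fold change was −0.74 (standard error 0.057), or 59.8% of the NC level. The library kit kept strand, but the use of strand in counting is not stated, and *MMP24* (20:35226690-35276998, plus strand) shares 806 exonic bases with *MMP24OS* on the other strand. On that strand a gene of type TEC, with 20 to 39 counts, shares 162 exonic bases with *MMP24*. Another protein-coding gene there, with 571 to 790 counts, overlaps *MMP24* but shares no exonic base. *MMP24OS* had 507 to 548 counts in NC and 203 to 257 in OE (log2 fold change −1.29, standard error 0.11, adjusted p = 2.6e-09), and its part in the value of *MMP24* was not tested.

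Among the inhibitors, *TIMP2*, which binds MMP14 and takes part in the activation of pro-MMP2 as well as in its inhibition, had the highest level. Its counts were 11514, 11800 and 11007 in NC and 10931, 11796 and 11214 in OE. The groups overlapped, since NC replicate 3 was below OE replicate 3 after scaling. NC samples had a CPM of 324 ± 15.7 (SD, n = 3) and OE samples of 301 ± 6.75 (SD, n = 3), and the log2 fold change was −0.11 (standard error 0.051). *TIMP2* is at 17:78852977-78925387 on the minus strand, where *CEP295NL* shares 224 exonic bases and had 11 to 27 counts.

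*TIMP1*, the inducible inhibitor of most soluble MMPs, had 1215, 1167 and 1233 counts in NC and 1127, 1142 and 876 counts in OE. After scaling, the 3 OE samples were below the 3 NC samples, with OE replicate 3 lowest. NC samples had a CPM of 34.1 ± 0.892 (SD, n = 3) and OE samples of 27.8 ± 3.33 (SD, n = 3), and the log2 fold change was −0.29 (standard error 0.079). Without OE replicate 3 it was −0.20. *TIMP1* (X:47582408-47586789, plus strand) lies within *SYN1* on the other strand and shares no exonic base with it. *TIMP3*, which binds to the matrix, was at the limit of detection, with 0, 0 and 1 counts in NC and 0, 1 and 2 in OE.

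Of the 10 genes, 7 passed the filter on low counts. The call required more than a 2-fold change together with an adjusted p below 0.05, and 2 of the 7, *MMP7* and *MMP1*, were called lower, while 0 were called higher (0 of them also at an unadjusted p below 0.05 in edgeR, and 0 called higher in DESeq2). Among all 15878 tested genes 3.79% were called lower and 1.73% higher, 5.51% in either direction. For 6 of the 7 the CPM of the groups did not overlap, as in 55.3% of all tested genes. Their median log2 fold change was −0.39, against −0.0032 over all tested genes. Because the same contrast chose the members, nothing is read from these counts.

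**Figure D2:**
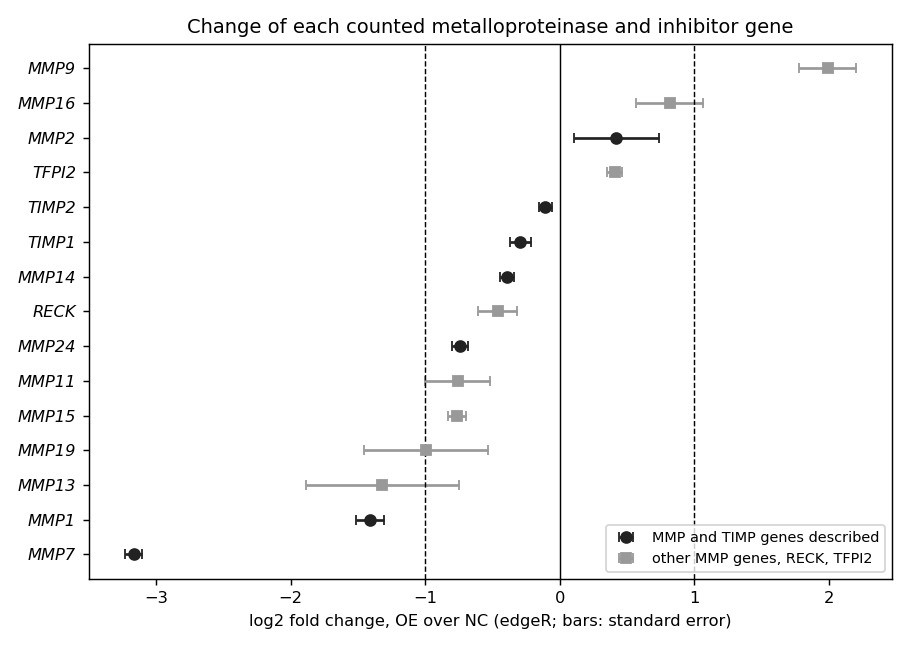
Log2 fold change of OE over NC with its standard error (horizontal axis) for each tested MMP gene, TIMP gene, *RECK* and *TFPI2* (vertical axis, ordered by the change), with dashed lines at a fold change of 2 in either direction. *MMP7* at −3.16 and *MMP9* at 1.99 are at the ends, and *TIMP1* and *TIMP2* are near 0.

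The plot of fold changes sets the members, in black, beside the other tested MMP and inhibitor genes, in grey. Members with high counts have short error bars, while *MMP2*, *MMP13* and *MMP19*, with few counts, have wide ones.

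Levels of different genes were compared in FPKM, which accounts for transcript length. In NC, *MMP14* (65.5 to 73.9 FPKM) and *MMP7* (60.4 to 68.3) were highest and their ranges overlapped. Below them came *TIMP2* (50.2 to 54.7), *TIMP1* (20.8 to 22.5), *MMP24* (16.4 to 17.3) and *MMP1* (4.26 to 4.99), each without overlap with its neighbours. In OE the ranges of *MMP14* (51.0 to 56.2 FPKM) and *TIMP2* (48.4 to 51.9) overlapped at the top. Below them stood *TIMP1* (15.8 to 19.4), *MMP24* (9.68 to 10.8), *MMP7* (6.86 to 7.64) and *MMP1* (1.69 to 1.96). *MMP7* thus moved from the overlapping ranges at the top to below *TIMP1* and *MMP24*. By mean FPKM the order of the other 5 stayed the same, although *TIMP2* (51.9) was above *MMP14* (51.0) in OE replicate 3.

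**Figure D3:**
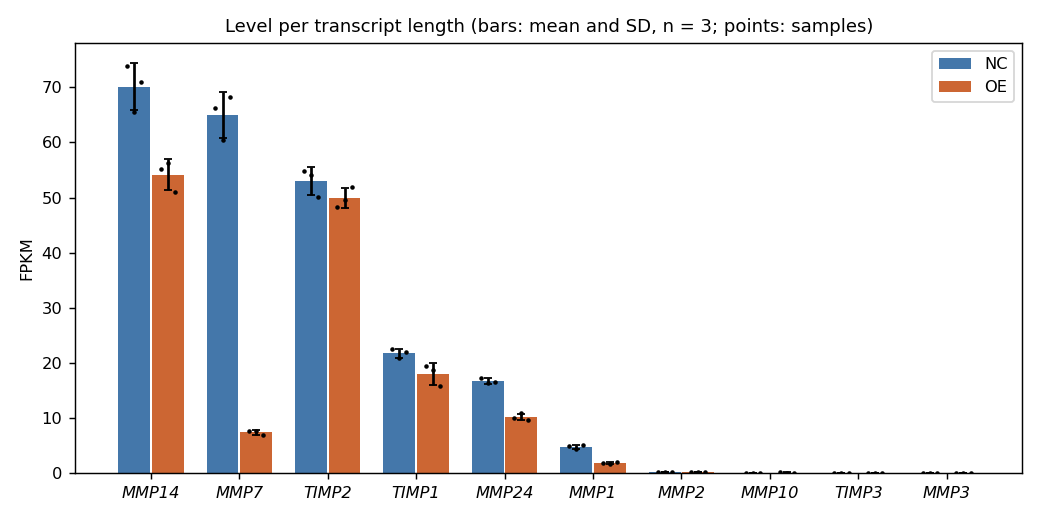
Mean deposited FPKM (vertical axis, from 0) of the 10 genes in NC (blue) and OE (orange), with SD bars (n = 3) and each sample as a point. *MMP7* drops from 65.0 to 7.34 FPKM, whereas *MMP14*, *TIMP2* and *TIMP1* keep most of their NC level.

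The plot of FPKM levels shows that 4 genes, *MMP14*, *MMP7*, *TIMP2* and *TIMP1*, made up most of the family's transcripts in NC. Summed over the 7 MMPs, NC had 157 ± 8.73 FPKM (SD, n = 3) and OE 73.7 ± 3.52 FPKM (SD, n = 3). Summed over the 3 TIMPs, NC had 74.8 ± 2.58 FPKM and OE 67.9 ± 0.312 FPKM. The ratio of the sums was 2.10, 1.96 and 2.23 in NC and 1.10, 1.12 and 1.03 in OE. All NC ratios were thus above all OE ratios. *MMP7* made up 41.5% ± 0.883 of the summed MMP FPKM in NC and 9.96% ± 0.219 in OE, and *MMP14* 44.7% ± 0.714 and 73.5% ± 0.307. These are transcript levels and do not measure protein or enzyme activity.

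*MMP7*, *MMP10*, *MMP1* and *MMP3* belong to a cluster of 9 MMP genes that spans 435 kb of chromosome 11 (102520508 to 102955732), all on the minus strand. Only 3 of the cluster's genes were tested. Besides *MMP7* and *MMP1* this was *MMP13* (collagenase 3), with 14, 21 and 12 counts in NC and 1, 16 and 3 in OE and a difference of −1.32 on the log2 scale (standard error 0.57, adjusted p = 0.061). Its groups overlapped through OE replicate 2, and without that sample it was −2.94 and was called. The 9 other tested genes within 1 Mb were taken by position after the values of the members were known. Of these, 0 were called in edgeR and 0 in DESeq2, 7 had an unadjusted p below 0.05, and 3 were higher and 3 lower at adjusted p below 0.05. They ran from −0.60 for *CEP126* to 0.87 for *CFAP300* on the log2 scale, with a median of 0.18.

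**Figure D4:**
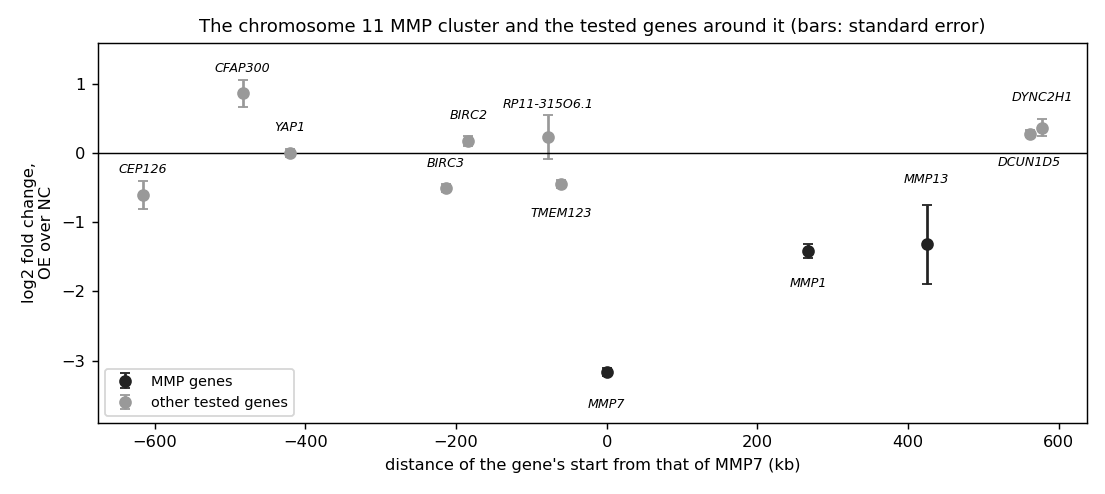
Log2 fold change of OE over NC with its standard error (vertical axis) against the distance of each tested gene from *MMP7* in kb (horizontal axis), for the chromosome 11 MMP genes (black) and the other tested genes within 1 Mb (grey). *MMP7* at −3.16 and *MMP1* at −1.41 lie below the other tested genes of the region, of which *MMP13* at −1.32 has a wide error.

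The plot of the chromosome 11 region shows neighbours on both sides of *MMP7* with smaller changes in both directions. *TMEM123* and *BIRC3*, named after their values were seen, were −0.45 and −0.51, and *BIRC2* and *YAP1* were 0.18 and 0.0048.

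Outside the 10 genes, the family showed changes in both directions. Of 17 further MMP genes, 6 were tested. *MMP9*, the inducible gelatinase, rose from 43, 26 and 29 counts in NC to 158, 138 and 120 in OE (log2 fold change 1.99, standard error 0.21, adjusted p = 1.1e-07). It was the 1 gene of the list that was called, and it stayed at a low level, 0.367 ± 0.108 FPKM (SD, n = 3) in NC and 1.48 ± 0.187 in OE. *MMP15*, another membrane-type MMP, fell by 0.76 on the log2 scale (adjusted p = 8.4e-09), with 1322 to 1380 counts in NC and 791 to 924 in OE. *MMP16* was higher (0.82, adjusted p = 0.0095) and *MMP11* lower (−0.76, adjusted p = 0.014), both at no more than 70 counts. *MMP19* (−0.99, adjusted p = 0.082) did not pass the test and overlapped between groups. The median of the 6 was −0.76. For each adjusted p, the quasi-likelihood test of edgeR was used and Benjamini-Hochberg adjustment was made over all tested genes. It measures the spread between these samples, which may be technical, since the study calls its replicates biological but neither it nor the labels say whether they were separate cultures. For a single gene, an exact permutation test of 3 samples against 3 cannot go below p = 0.1.

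Of 5 other inhibitors, 2 were tested. *RECK*, a membrane-anchored MMP inhibitor, was −0.46 (adjusted p = 0.012) and *TFPI2*, a secreted inhibitor of serine proteases, was 0.41 (adjusted p = 2.1e-06) on the log2 scale. Both passed the adjusted p in opposite directions, and 0 were called in edgeR or DESeq2.

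Plasminogen activation and proprotein convertases act upstream of pro-MMPs. Of the 12 tested genes of this list, 1 was called lower and 0 higher, with 4 higher and 3 lower at adjusted p below 0.05, 5 and 3 at an unadjusted p, and a median of 0.19. DESeq2 called 1 lower and 0 higher. The called gene was *SERPINF2*, the plasmin inhibitor (log2 fold change −1.40, standard error 0.19, adjusted p = 3.6e-06). The urokinase gene *PLAU* (0.44), its receptor *PLAUR* (0.65) and the tissue activator *PLAT* (0.48) passed the adjusted p with smaller changes, and are named after their values were seen. Of the 22 tested ADAM, ADAMTS and astacin proteases, the related metalloproteinase families, 1 was called lower and 0 higher, with 3 higher and 9 lower at adjusted p below 0.05, 4 and 10 at an unadjusted p, and a median of −0.12. DESeq2 likewise called 1 lower and 0 higher. The called gene was *ADAMTS15*, an aggrecan-cleaving protease (−1.42, standard error 0.13, adjusted p = 1.4e-08).

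AP-1 and ETS factors are the regulators most often described at MMP promoters, and all 15 were tested. *FOS* and *FOSB*, both subunits of AP-1, fell by 1.93 (adjusted p = 1.0e-14) and by 1.64 (adjusted p = 7.0e-14), and *ETV4*, an ETS factor, rose by 1.12 (adjusted p = 3.2e-10) on the log2 scale. These 3 were the called genes, and at adjusted p below 0.05 alone 9 were higher and 4 lower, with a median of 0.40. The AP-1 subunits moved in both directions. *FOSL1* was 0.88 (adjusted p = 1.3e-11), *JUN* 0.44 (adjusted p = 2.2e-07) and *JUNB* −0.92 (adjusted p = 8.8e-12), the last 3 named after their values were seen. Whether any of them acts on the promoters shown above was not measured here.

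Of 12 tested TCF factors and Wnt target genes, 3 were called lower and 0 higher in edgeR, and 2 lower and 0 higher in DESeq2. *AXIN2*, a feedback inhibitor of Wnt signalling, had 217, 196 and 219 counts in NC and 56, 58 and 57 in OE (−1.97, adjusted p = 7.7e-10). *TNFRSF19* was −1.61 (adjusted p = 1.9e-11) and *NOTUM*, a secreted Wnt deacylase with 11 to 31 counts, was −1.03 (adjusted p = 0.020). *NOTUM* was not called in DESeq2. At an adjusted p under 0.05, 1 gene was higher and 4 lower, and 1 and 4 at an unadjusted p. The median of the list was −0.25.

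Of 18 tested MMP substrates and docking partners, 3 were called lower and 0 higher in edgeR and in DESeq2, with 4 higher and 11 lower at adjusted p below 0.05, 5 and 11 at an unadjusted p, and a median of −0.21. *IGFBP3*, a carrier of insulin-like growth factors that MMPs cleave, fell by 1.63 (adjusted p = 1.9e-15). *CDH1* (E-cadherin), whose ectodomain MMP7 sheds, fell by 1.09 (adjusted p = 0.0011) from 66 to 80 counts in NC to 26 to 51 in OE, and without OE replicate 2 it was no longer called, at −0.86. The third, *ELN* (elastin, −2.44), had only 2 to 33 counts and was named after its values were seen.

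**Figure D5:**
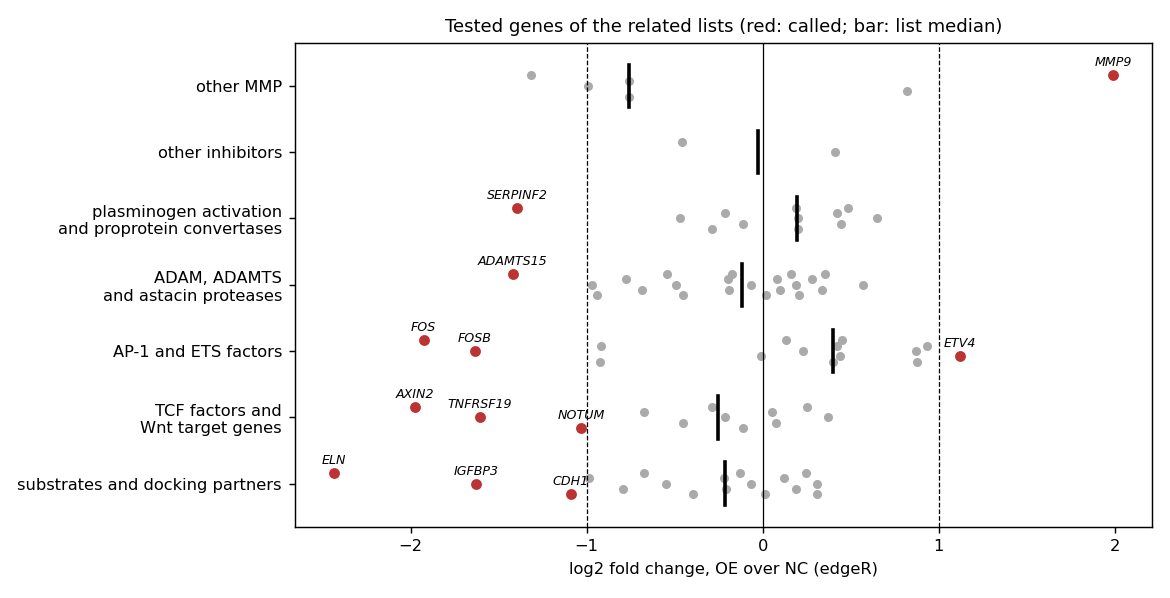
Log2 fold change of OE over NC (horizontal axis) of each tested gene of the related lists (rows), with called genes in red and named, a black bar at the list median and dashed lines at a fold change of 2 in either direction. Called genes are mostly on the lower side, with *MMP9* and *ETV4* as the called genes on the higher side, and all list medians lie between −0.76 and 0.40.

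The plot of the related lists shows that most of their genes changed by less than 2-fold in either direction. No share of a list is read as a property of it.

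The genes whose pattern over the 6 samples was most like that of a member were found by the root mean square difference of log2 CPM, centred on each gene, among the 11770 genes whose mean count reached 100. For *MMP7* they were *CLDN2* (0.40), *TCIM* (0.43) and *ID1* (0.46), so that no gene of that count was nearer to *MMP7* than 0.40. For *MMP1* they were *RSPO3* (0.075), *MAGED1* (0.077) and *LACTB2* (0.084), and for *MMP24* *PON2* (0.011), *DENND2A* (0.023) and *MMP15* (0.026). *MMP14* was most like *PTTG1* (0.019), *MDGA1* (0.021) and *CTD-2515O10.6* (0.023). *TIMP1* was most like *SLC39A13* (0.027), *OLFM2* (0.032) and *MT1F* (0.034), and *TIMP2* most like *MED9* (0.018), *DCAF8* (0.023) and *TRAK1* (0.025). For *MMP7*, *MMP1*, *MMP24* and *MMP14* the measure mostly reflects the difference between the 2 groups, which the genes share. For *TIMP1* and *TIMP2*, with small differences between the groups, it also reflects the spread among replicates.

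Markers of other cell types that make MMPs had far lower sums than the tubule epithelial markers. Summed over 7 fibroblast and pericyte markers, CPM was 18.3 to 19.7 in NC and 8.31 to 9.94 in OE. Of these 7 markers 3 were tested, and *LUM*, a matrix proteoglycan, was called lower (−1.94, adjusted p = 6.4e-09). *COL1A1* had the most counts of the 7, 428 to 483 in NC and 219 to 262 in OE (−0.99, adjusted p = 5.7e-08, not called). *ACTA2*, with 19 to 81 counts, was 0.64 (adjusted p = 0.17). *PDGFRA* and *COL3A1* had at most 1 count in any sample. The 7 leukocyte markers summed to 0.948 to 1.70 CPM in NC and 0.495 to 0.809 in OE, with *CSF1R* tested and called lower in edgeR but not in DESeq2, and *PTPRC* had 0 counts in all samples but 1. The 5 endothelial markers summed to 5.09 to 6.48 CPM in NC and 7.09 to 8.09 in OE, with 3 tested and 0 called by edgeR or DESeq2 (2 higher at an unadjusted and also at an adjusted p below 0.05, *VWF* at 0.41 and *PECAM1* at 0.52 on the log2 scale). The 15 tubule epithelial markers summed to 3849 to 4209 CPM in NC and 3133 to 3392 in OE, with 12 tested, 3 called lower (*HAVCR1*, *CDH1* and *GGT1*) and 0 higher, also in DESeq2. The part of these shifts in the values of the MMP genes was not tested. Without NC replicate 2, the library that stood apart, the log2 fold change was −3.20 for *MMP7*, −1.47 for *MMP1*, −0.75 for *MMP24* and −0.43 for *MMP14*.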

How the data were processed

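HK-2 RNA was sequenced in 3 NC and 3 OE samples. According to the study's methods, reads were cleaned with FASTX-Toolkit and aligned to GRCh38 with HISAT2; libraries were stranded and antisense reads were tallied apart in the mapping summary, but the annotation, the counting program and its use of strand for the gene counts are not given in the sources used here. The authors deposited raw counts per gene for 31369 genes and FPKM values for 30896 genes. Groups came from the genotype entries. The members and the gene lists were chosen with earlier results of these data known.

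The deposited counts were fitted with edgeR 4.0.16 under R 4.3.3 (filterByExpr, TMM, two-sided quasi-likelihood test) over 15878 genes with Benjamini-Hochberg adjustment. Total counts were 34635770 to 36116963 in NC and 36033404 to 39850802 in OE, so counting error is small for highly counted genes and large for those under 20. The standard error of a log2 fold change is its size divided by the square root of F. Every replicate pair differed by more than sampling noise (chi-square per gene of at least 5.12), so no samples were merged. Scripts were tested on simulated data.

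Named genes were *PPM1K*, all members, every tested gene of the other MMP and other inhibitor lists, up to 5 called genes of each other list whose mean count reached 20, and the 3 genes most like each member among those whose mean count reached 100. Exceptions are stated in the text, as are the overlapping, neighbouring and marker genes. Alternatives were DESeq2 1.42.0, DESeq2 size factors, upper quartile normalization, no filter, at least 10 counts in every sample, the replicate number as a block, limma 3.58.1 on log2(FPKM + 1) and log2(FPKM + 0.1), and each sample left out. Figures were drawn with matplotlib 3.10.9. Positions are from GENCODE release 44 and promoters from RefSeq, trimmed to end before the annotated start of the transcript. A result for 1 gene is not reported here.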

Additional observations from a re-analysis of the deposited data

How the results depend on the processing

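The 7 tested members kept the sign of their fold change under all 14 alternatives, and 2 of them were called lower and 0 higher in each. *MMP7* ran from −3.20 to −2.98 and *MMP1* from −1.47 to −1.03 on the log2 scale, the smallest changes being on log2(FPKM + 1), a scale that understates low genes. On log2(FPKM + 1), limma called 124 genes in place of 875, and 437 on log2(FPKM + 0.1). On log2(FPKM + 1), the 1 call higher among the other MMPs became 0, the 1 call higher among the AP-1 and ETS factors 0, the 1 call lower among the plasminogen genes 0, the 1 among the ADAM list 0, the 3 among the Wnt list 1 and the 3 among the substrates 1, which was also 1 on log2(FPKM + 0.1). With upper quartile normalization the ADAM list had 2 calls lower (*TLL2* added). Without a filter on low counts the other MMPs had 1 call lower in place of 0 (*MMP13*). The median of all genes moved to −0.13 in DESeq2 and without a filter, where more low-count genes are included.

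With each sample left out, the calls were 1 to 2 higher and 0 to 2 lower among the other MMPs, 1 to 2 lower in the ADAM list (2 without any 1 sample other than NC replicate 3, the added gene being *ADAMTS10*, *TLL1* or *TLL2*), 2 to 3 lower in the Wnt list and 2 to 4 lower among the substrates. Without NC replicate 2 *MMP16* was called higher (1.02), and without OE replicate 2 *MMP13* (−2.94) and *MMP19* (−1.56) were called lower, as was *MMP19* without NC replicate 3 (−1.30).

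In the paired fit, with a replicate block, 877 genes were called and the other MMPs had 2 calls lower, *MMP13* (−1.48) and *MMP19* (−1.02). Around the group means, samples that share a number correlated at −0.015, −0.13 and −0.13, and 0 of 6 samples correlated best with their own number, so the numbers were not treated as pairs. *NOTUM* lost its call in 7 alternatives and *CDH1* in 3. For *MMP3* and *TIMP3*, with at most 2 counts in any sample, differences were not detectable at this depth.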
